A study of Mus musculus with 10 samples.

Results

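The comparison set tumour-associated macrophages (TAM) against adherent peritoneal exudate cells (PEC), which stand for resident macrophages of the peritoneum, after both had been exposed to lipopolysaccharide (LPS). It was made on 2 of the 10 arrays of the series, TAM1 and TAM7, chosen by their titles because RNA of TAM with LPS was in one channel and RNA of PEC with LPS in the other. Both cell populations came from C57/6N mice aged 8 weeks, TAM 3 weeks after a tumour was implanted, and adherent cells were kept in culture with 100 ng/mL LPS for 4 hours. The tumour line is not named in the labels, and adherence was the only selection of macrophages that the labels state. Of the 9596 cDNA features, 7486 had 1 gene symbol, and averaging the features of 1 gene gave 6795 named genes. They were tested together with the unnamed features, 8905 in all. Each value is a log2 ratio of TAM with LPS over PEC with LPS, so that a negative value means less in TAM. For genes that passed the test, fell and rose mean lower and higher in TAM than in PEC, not a response to LPS. The other 8 arrays, used for reference, held untreated TAM against untreated PEC (4 arrays: TAM-8, TAM-b, TAM-3 and TAM-2R), PEC with LPS against untreated PEC (2 arrays) and TAM with LPS against untreated TAM (2 arrays).

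LPS, a component of the outer membrane of Gram-negative bacteria, is sensed by Toll-like receptor 4 on macrophages. An early arm through MyD88 and NF-kB switches on cytokines such as tumour necrosis factor and interleukin 1, chemokines and the inhibitors that later end the response. A second arm through IRF3 leads to interferon beta, which acts back on the same cells and induces interferon-stimulated genes. Macrophages of tumours are often described as impaired in the first arm, and the question of this comparison was how far TAM and peritoneal macrophages still differ once both have met LPS.

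The direction of every ratio is likely and not certain, because the labels name channels but no dyes. Channel 2 was read over channel 1, with the basis that LPS-induced genes then rise on the arrays of LPS in PEC. Of 100 genes of the cytokine, effector, chemokine and interferon lists, 79 lay above 0 on the first of these arrays and 86 on the second, against 51.2% and 47.5% of all genes and features. On the arrays of LPS in TAM the margin was smaller on TAM-trial (59 of 100, against 49.8%) and 71 of 100 lay above 0 on TAM-16, against 38.9%. TAM1 had its channels exchanged and was turned, while TAM7 was not. TAM1 and TAM7 also came from different array prints (v3p6 and v9p2), so the array, its print and its channel order cannot be told apart within the pair. Across 8905 genes and unnamed features the 2 arrays correlated at r = 0.308 (genes are not independent replicates), and 61.1% lay on the same side of 0 on both. TAM7 correlated with the 2 other arrays of its print, read as deposited, at r = 0.568 (TAM-8) and 0.433 (TAM-trial) across features. Large values were often seen on a single array: 56 genes or features had a size of at least 4 on TAM1 with less than 1 on TAM7, 39 the reverse, and 3 had at least 4 on both with the same sign. Different features of 1 gene hardly correlated within an array (r = 0.102 on TAM1 and -0.033 on TAM7 over 631 genes). So a single gene's value may not stand for that gene. Place in groups of 96 features accounted for 4.39% of the variance on TAM1 and 15.3% on TAM7, where chance gives 0.99%. On the 8 other arrays, which also set the spread of the test, it accounted for 8.32% to 49.1%. With 2 arrays, and no label stating that they came from separate animals or cultures, p-values measure only the spread between arrays, which may be technical. Levels of either channel were not used here, so a ratio cannot separate fewer cells of a type from less RNA per cell.

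Of the 6 that passed the test, 5 were named genes and 1 was an unnamed feature. Ficolin A (Fcna, Entrez 14133), a lectin that recognises bacterial sugars and is made by peritoneal macrophages, was at -5.06 on TAM1 and -4.93 on TAM7. Both arrays put it about equally far below 0. It fell 31.9-fold in TAM (mean log2 ratio -5.00 ± 0.10, SD, n = 2; limma, adjusted p = 0.00754). The urokinase receptor Plaur (Entrez 18793), which focuses plasmin formation on the cell surface, was at -4.59 and -3.71, a 17.8-fold fall (mean -4.15 ± 0.62, SD, n = 2; limma, adjusted p = 0.00754). Phospholipid transfer protein Pltp (Entrez 18830), which moves lipids between lipoproteins, was at -4.17 and -3.92, a 16.5-fold fall (mean -4.05 ± 0.17, SD, n = 2; limma, adjusted p = 0.00754). Plpp3 (Entrez 67916), a membrane phosphatase of lipid mediators such as lysophosphatidic acid, was at -3.72 and -3.28 and fell 11.3-fold (mean -3.50 ± 0.32, SD, n = 2; limma, adjusted p = 0.0354). The single gene that rose was 0610009E02Rik (Entrez 100125929), listed as a long non-coding RNA. It was at 5.44 on TAM1 and 3.52 on TAM7, 22.4-fold higher in TAM (mean 4.48 ± 1.36, SD, n = 2; limma, adjusted p = 0.0354). The unnamed feature fell (-3.03 and -2.78; limma, adjusted p = 0.0334).

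The genes that fell, with the unnamed feature, were 5 of 8905 (0.0561%), and the one that rose was 0.0112%. A further 15 named genes had adjusted p-values from 0.05 to 0.06, and all of them lay lower in TAM. The tested mean uses only TAM1 and TAM7, so leaving out any of the other 8 arrays could change only the estimated spread. Leaving out each of the 10 arrays in turn, Plaur passed in 9 fits, Fcna and Pltp in 8, Plpp3 in 3 and 0610009E02Rik in 2 (limma, adjusted p up to 0.162 for the first 3 genes, 0.389 for Plpp3 and 0.432 for 0610009E02Rik). Without TAM1 3 passed (Abcb1b, Lrrc73 and an unnamed feature), with none of the 6 among them, and without TAM7 7 passed, with 1 of the 6 among them. The calls also depended on the coding of TAM1: left unturned, the means of the 5 genes were 0.07 (Fcna), 0.44 (Plaur), 0.12 (Pltp), 0.22 (Plpp3) and -0.96 (0610009E02Rik), and no gene passed (limma, 152 at an unadjusted p under 0.05). All 5 genes also had the direction given here on TAM7, which needed no turning. They were called on the mean of both arrays and named for the same sign on both, so this is no separate support. None passed on the 2 arrays alone or with a dye offset for each array print (limma, 1087 and 374 at an unadjusted p under 0.05).

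**Figure D1:**
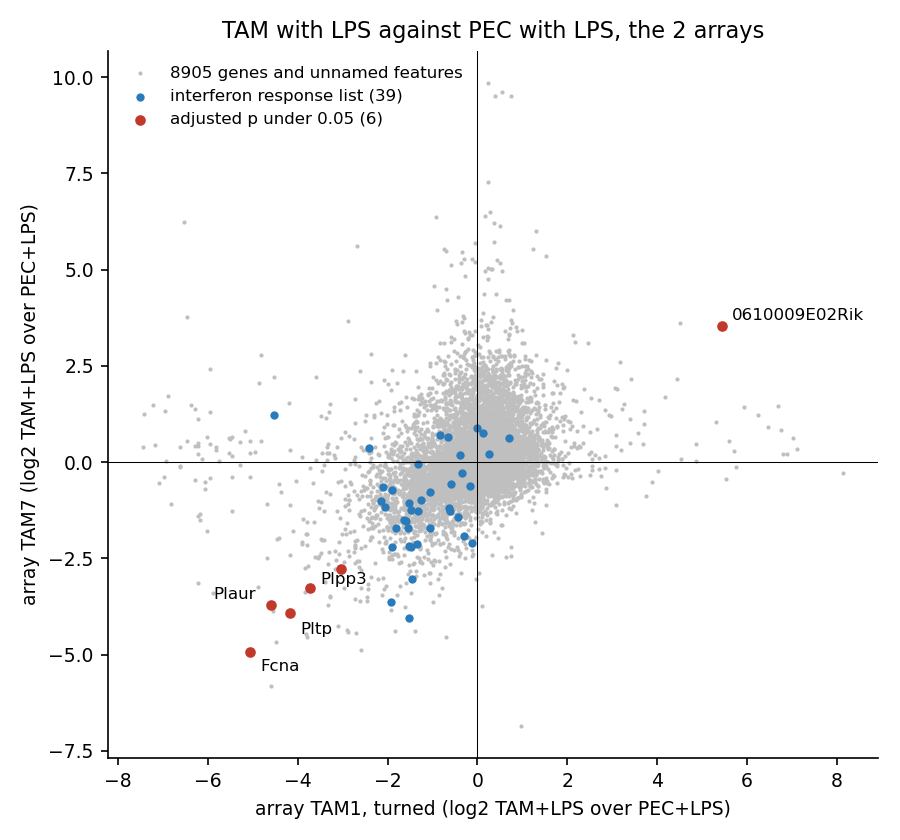
Log2 ratios of TAM with LPS over PEC with LPS on array TAM1 (x axis, turned) and array TAM7 (y axis). Grey points are the 8905 genes and unnamed features, blue points the 39 measured genes of the interferon response list and red points the 6 that passed the test, with names where there is 1 symbol. A reader should see the interferon genes gathered in the lower left (30 of 39 below 0 on both arrays) and the arms of points that are large on 1 array only.

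More genes stood clearly lower in TAM than higher. At least 2-fold lower on both arrays were 451 of 8905 (5.06%), and at least 2-fold higher on both were 146 (1.64%), although 28.2% of all genes and features lay below 0 on both arrays and 32.9% above. At an unadjusted p under 0.05, 616 were lower and 185 higher (limma).

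Inflammatory cytokines were among the genes lower in TAM, as values that did not pass the test. Tumour necrosis factor (Tnf) was at -3.79 on TAM1 and -2.16 on TAM7 (mean -2.97 ± 1.15, SD, n = 2; limma, adjusted p = 0.195). Interleukin 1 beta (Il1b), the pyrogenic cytokine, was at -3.10 and -4.25 (mean -3.68 ± 0.82, SD, n = 2; limma, adjusted p = 0.363). Edn1, the vasoactive peptide endothelin 1 that macrophages make after LPS, was at -3.54 and -2.49 and just missed the threshold (limma, adjusted p = 0.0529). On both arrays all 3 lay more than 4-fold below PEC. Il15, a growth factor of natural killer and memory T cells, was at -1.02 and -2.11, and the granulocyte-macrophage growth factor Csf2 at -1.07 and -1.61. Il12b, a subunit of interleukins that drive type 1 responses, was on different sides of 0 (0.64 and -0.82). Of the 13 measured genes of the cytokine list, 9 lay below 0 on both arrays and 1 above, none passed (limma), and 5 were at least 2-fold lower on both. The median of the list was -1.16, against 0.08 for all genes and features.

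Effector molecules of activated macrophages were mostly lower in TAM as well. Besides Plaur, which fell, these held the coagulation starter tissue factor (F3, -2.71 and -3.54), the serine protease inhibitor Serpinb2 (-2.92 and -1.88), the acute-phase protein Saa3 (-2.70 and -4.43; limma, adjusted p = 0.092) and Slpi, an antiprotease of mucosal secretions (-2.88 and -4.42; limma, adjusted p = 0.156). The costimulatory receptor Cd40 was at -1.47 and -1.10, and the iron-binding antibacterial protein Lcn2 at -1.01 and -1.37. Without LPS the means of Saa3 (-6.61) and Slpi (-4.31) were lower still, and that of Serpinb2 was alike (-2.41). Those of F3 (-0.88) and Cd40 (-0.43) were nearer to 0, and that of Lcn2 was above it (0.82). Inducible nitric oxide synthase (Nos2) was near 0 on TAM1 (-0.12) and low on TAM7 (-2.45). The matrix protease Mmp9, by contrast, was at 0.43 and 0.82. Of 23 measured effector genes, 17 were below 0 on both arrays, 3 above on both, 11 at least 2-fold lower on both, and 1 (Plaur) fell; the median was -1.20.

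Chemokines were split. Ccl3 and Ccl4, which draw monocytes and T cells, were at -4.54 and -3.88 for Ccl3 and at -3.48 and -2.0 for Ccl4 (limma, adjusted p = 0.242 and 0.523). Ccl9 was at -3.27 and -3.48 and Ccl6 at -4.17 and -2.41 (limma, adjusted p = 0.0557 for each), both chemokines of the macrophage inflammatory protein family that bind CCR1. The monocyte attractant Ccl2 differed between the arrays, at -1.39 and -4.38, and so did Ccl5 (-2.51 and -0.35). Cxcl10, which interferons induce and which attracts activated T cells through CXCR3, was at -1.81 and -1.79. Cxcl9, a ligand of the same receptor, was instead at 0.78 and 1.24. Of 25 measured chemokine genes, 12 (48%) were below 0 on both arrays, against 28.2% of all genes and features. Above 0 on both were 8 (32%), near the share of all (32.9%). At least 2-fold lower on both were 6 (24%, against 5.06%), and none was at least 2-fold higher. None passed (limma), and the median was -0.32.

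**Figure D2:**
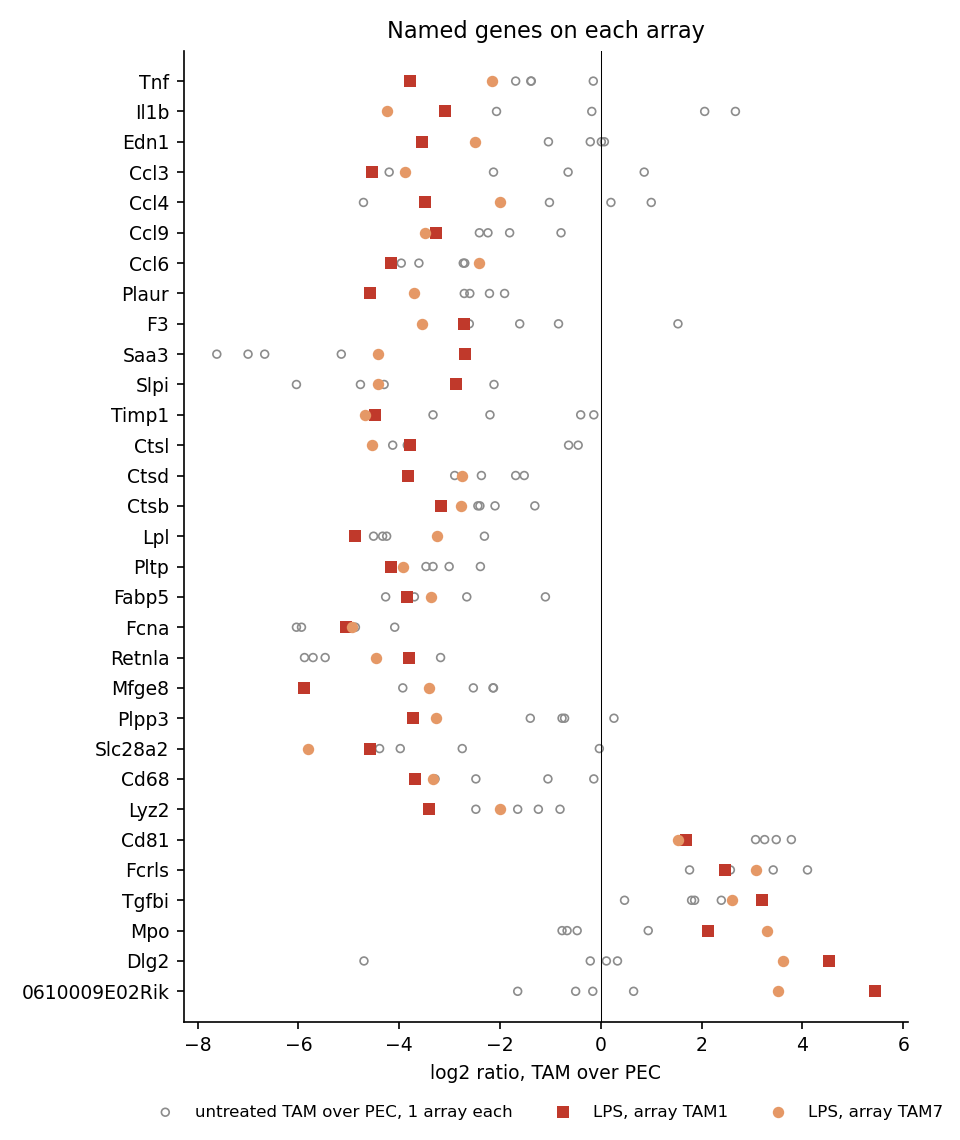
Log2 ratio of TAM over PEC (x axis) for genes named in the text (rows). Red squares are array TAM1 and orange circles array TAM7, both with LPS, and open grey circles are the 4 untreated arrays. A reader should see that Fcna, Pltp and Retnla were low with and without LPS, and that Plpp3, Edn1 and 0610009E02Rik stood away from the untreated arrays.

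Genes of the interferon response lay together below 0, in sizes that did not pass gene by gene. Of the 39 measured, 30 (76.9%) were below 0 on both arrays, against 28.2% of all genes and features, and 3 were above on both. At least 2-fold lower on both were 17 (43.6%), against 5.06%. The median of the list was -1.29, with -1.32 on TAM1 and -1.16 on TAM7, and none of its genes passed the test by itself (limma). Left unturned, TAM1 would bring the median to 0.03.

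Ifit1, which blocks translation of foreign RNA, was at -1.92 and -3.64 (6.88-fold lower; limma, adjusted p = 0.274). Rsad2, which encodes the antiviral enzyme viperin, was at -1.81 and -1.72, and its 2 features gave the same values to 2 decimals on both arrays. Oas1a, a sensor of double-stranded RNA that activates RNase L, was at -1.60 and -1.53. Parp14, an ADP-ribosyltransferase, was at -1.55 and -1.71, and Ifnar1, a chain of the receptor that receives interferon beta, at -1.90 and -2.21. Irf7, the transcription factor that amplifies type I interferon production, was at -2.10 and -0.65. Among genes of MHC and antigen presentation, the immunoproteasome subunit Psmb8 was at -2.06 and -1.16, the peptide transporter Tap1 at -1.63 and -1.51, and beta-2 microglobulin (B2m), the light chain of MHC class I, at -1.60 and -3.75. Of the 18 measured genes of that list, 11 were below 0 on both arrays, 2 above and 4 at least 2-fold lower on both, with a median of -0.61 and none past the test (limma). Both arrays had each gene named here below 0, nearly equal for Rsad2 and Oas1a and far apart for Ifit1, Irf7 and B2m.

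Several of these genes had lain on the other side of 0 without LPS. Irf7 was at 2.65 on the untreated array TAM-8, 1.94 on TAM-b, 2.95 on TAM-3 and 1.83 on TAM-2R. In the same order of arrays Cxcl10 was at 1.40, 3.47, 3.08 and 2.68 and Oas1a at 0.85, 0.77, 1.76 and 0.67. All untreated values were above 0 and both LPS values below, so the groups did not overlap. The difference of the ratio with LPS minus that without was -4.46 ± 0.82 (SE) for Cxcl10, -3.72 ± 0.68 for Irf7 and -2.58 ± 0.50 for Oas1a, and none passed over all genes (limma, adjusted p = 0.416 for each). Lgals9, galectin 9, a lectin that interferons induce and that binds TIM-3, had the smallest p of the table for this difference. It was at 1.23, 1.37, 1.41 and 0.55 untreated and at -2.71 and -2.62 with LPS (difference -3.81 ± 0.52, SE; limma, adjusted p = 0.241). No gene passed the test of this difference (0%; 623 at an unadjusted p under 0.05). Lower with LPS at an unadjusted p under 0.05 were 18 of the 39 interferon genes, against 308 of 8905 genes and features (3.46%). Above 0 on all 4 untreated arrays and below 0 on both LPS arrays were 9 of the 39, against 164 of 8905 (1.84%). On the arrays of LPS in PEC the median of the interferon list was 1.06, and on those of LPS in TAM it was 0.18, with -0.31 on TAM-trial and 0.50 on TAM-16.

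**Figure D3:**
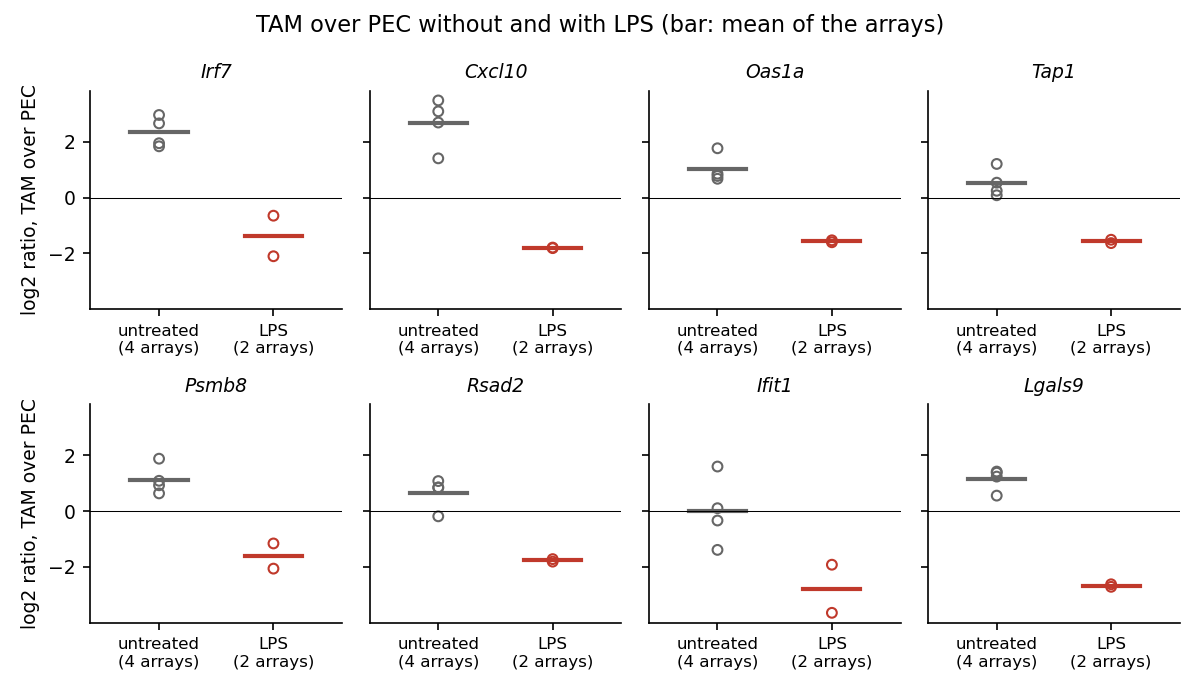
Log2 ratio of TAM over PEC (y axis) for 8 genes without LPS (grey, 4 arrays) and with LPS (red, 2 arrays). Circles are single arrays and bars their mean. A reader should see Irf7, Cxcl10, Oas1a, Tap1, Psmb8 and Lgals9 above 0 on every untreated array and below 0 on both LPS arrays.

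The interferon-stimulated response element, bound by the STAT and IRF factors that act downstream of the interferon receptor, holds the core GAAANNGAAA. Promoters of 4 genes of this group are shown with that core in capitals on either strand (TTTCNNTTTC on the other), together with matches to the NF-kB consensus, also on either strand. They are the 250 bases before the start, from RefSeq with the build GRCm38.p6, at chr5:92348890-92349139 (minus strand), chr5:120907526-120907775 (minus strand), chr19:34640639-34640888 (plus strand) and chr12:26456453-26456702 (minus strand).
Cxcl10: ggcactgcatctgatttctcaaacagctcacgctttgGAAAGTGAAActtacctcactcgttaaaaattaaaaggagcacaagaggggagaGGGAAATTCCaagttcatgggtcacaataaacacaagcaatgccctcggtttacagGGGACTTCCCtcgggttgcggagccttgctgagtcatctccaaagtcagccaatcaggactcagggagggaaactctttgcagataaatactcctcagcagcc
Oas1a: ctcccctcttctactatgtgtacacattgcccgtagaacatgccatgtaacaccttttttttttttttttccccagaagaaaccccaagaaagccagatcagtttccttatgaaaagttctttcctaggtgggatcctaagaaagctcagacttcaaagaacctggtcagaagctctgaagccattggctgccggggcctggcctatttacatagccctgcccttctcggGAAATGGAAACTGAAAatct
Ifit1: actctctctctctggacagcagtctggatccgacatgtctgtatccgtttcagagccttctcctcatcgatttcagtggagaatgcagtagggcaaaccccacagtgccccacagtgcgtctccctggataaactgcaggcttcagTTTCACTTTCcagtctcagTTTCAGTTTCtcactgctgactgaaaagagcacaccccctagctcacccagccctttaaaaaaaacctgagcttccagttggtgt
Rsad2: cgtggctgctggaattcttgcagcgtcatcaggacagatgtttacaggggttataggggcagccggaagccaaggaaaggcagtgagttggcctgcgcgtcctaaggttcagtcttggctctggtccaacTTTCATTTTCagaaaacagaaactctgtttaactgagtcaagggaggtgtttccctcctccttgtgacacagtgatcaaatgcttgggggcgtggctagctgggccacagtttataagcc
Cxcl10 had the interferon core beginning 213 bases before the start and NF-kB matches beginning 159 and 103 bases before it. Oas1a had 2 overlapping interferon cores, beginning 20 and 14 bases before the start, and Ifit1 had 2, beginning 104 and 85 bases before it on the opposite strand. The core was in 11 of the 34 measured interferon genes with a promoter in the table (32.4%), against 170 of 5377 measured genes (3.16%) and 2.98% of all 32851 promoters of that length. Of the 11, 10 lay below 0 on both arrays; besides the 3 of them shown these included the GTPases Gbp2 (-1.45 and -3.03) and Igtp (-1.47 and -2.20). Over all measured genes at least 2-fold lower on both arrays, 24 of 283 with a promoter held the core (8.48%), against 2 of 80 (2.5%) of those at least 2-fold higher. Within the interferon list the share was alike among genes at least 2-fold lower (5 of 15) and the others (6 of 19). For the NF-kB consensus the shares were 7.42% of the genes at least 2-fold lower, 5% of those at least 2-fold higher and 5.97% of all measured genes. A match is a description of the letters and not a bound site.

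Genes of the LPS signalling list, which also holds receptors of other ligands such as Tlr2, were lower on balance. Tlr2, which senses bacterial lipoproteins and not LPS, was at -1.75 and -2.62. The adaptor Myd88 was at -1.79 and -2.39. The kinase Map2k1 was at -1.41 and -2.61, the AP-1 subunit Junb at -2.41 and -1.32, and the transcription factor Irf5 at -1.30 and -1.16. Of 27 measured signalling genes, 16 (59.3%) were below 0 on both arrays, against 28.2% of all genes and features. Above 0 on both were 2 (7.41%, against 32.9%). The median was -0.54, and none passed the test (limma).

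Inhibitors that end the response lay lower as well. Nfkbia, the inhibitor that NF-kB itself induces, was at -2.20 and -1.79, and Socs3, which blocks cytokine receptor signalling, at -2.75 and -2.33 (limma, adjusted p = 0.424 and 0.477). Stat3, the factor that carries interleukin 10 signals, was at -1.46 and -1.06, and Ier3, an immediate early gene, at -2.75 and -1.79. Of 33 measured feedback genes, 17 were below 0 on both and 5 above (median -0.59, with -1.08 on TAM1 and -0.19 on TAM7). The promoter of Nfkbia is shown as an example of a feedback gene with the NF-kB consensus in capitals, on the opposite strand and beginning 29 bases before the start, from RefSeq with the build GRCm38.p6 at chr12:55492648-55492897 (minus strand).
Nfkbia: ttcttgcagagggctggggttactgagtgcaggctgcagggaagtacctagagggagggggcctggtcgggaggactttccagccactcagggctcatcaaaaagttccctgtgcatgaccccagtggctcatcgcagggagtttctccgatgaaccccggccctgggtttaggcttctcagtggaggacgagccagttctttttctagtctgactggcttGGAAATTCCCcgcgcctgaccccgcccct
The consensus was in 4 of the 28 feedback genes with a promoter in the table (14.3%), in 3 of 19 chemokine genes (15.8%), in 321 of 5377 measured genes (5.97%) and in 3.9% of all promoters.

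Genes of matrix breakdown and its control were low in TAM around the called Plaur. Timp1, the secreted inhibitor of metalloproteinases, was at -4.48 and -4.68, 23.9-fold lower with little spread between the arrays (mean -4.58 ± 0.14, SD, n = 2; limma, adjusted p = 0.0529). The lysosomal proteases cathepsin L (Ctsl, -3.79 and -4.55), cathepsin D (Ctsd, -3.83 and -2.75) and cathepsin B (Ctsb, -3.17 and -2.77) lay low as well (limma, adjusted p = 0.217, 0.0529 and 0.0529). The hyaluronan receptor Cd44 was at -2.60 and -2.81. Of 32 measured matrix genes, 20 were below 0 on both arrays, 15 at least 2-fold lower on both, and 1 fell; the median was -0.99. Of 43 measured lysosome genes, 30 were below 0 on both and 3 above, with a median of -0.76 and none past the test (limma). Ctsl and Ctsb are in both lists.

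Among lipid genes Pltp fell, and lipoprotein lipase (Lpl, -4.88 and -3.25; limma, adjusted p = 0.0529) and the fatty acid binding proteins Fabp5 (-3.84 and -3.37; limma, adjusted p = 0.0854) and Fabp4 (-1.54 and -1.67) were low. The median of the list was nearer to 0, at -0.20. Of its 32 measured genes, 17 were below 0 on both arrays (53.1%, against 28.2% of all genes and features). Above 0 on both were 4 (12.5%, against 32.9%). Outside these lists, the nucleoside transporter Slc28a2 was at -4.59 and -5.82 (limma, adjusted p = 0.0697), and Mfge8, a bridge by which macrophages take up dying cells, at -5.89 and -3.40 (limma, adjusted p = 0.0529).

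Markers of alternative (M2) activation lay mostly below 0, with some above it. Retnla was at -3.81 and -4.46 (limma, adjusted p = 0.0529), the transglutaminase Tgm2 at -1.97 and -2.52 and the scavenger receptor Marco at -1.89 and -1.62. The mannose receptor Mrc1 was at 0.30 and 1.63. Igf1, an insulin-like growth factor, had 2 features that disagreed in size, at -3.13 and -3.02 for the first and -0.60 and -1.40 for the second. Of 24 measured genes, 14 (58.3%) were below 0 on both arrays, against 28.2% of all genes and features. Above 0 on both were 4 (16.7%, against 32.9%). At least 2-fold lower on both were 4 (16.7%, against 5.06%), and none was at least 2-fold higher. The median was -0.34, and none passed the test (limma).

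Other genes lay higher in TAM on both arrays. By the smaller of both values the highest after 0610009E02Rik were the synaptic scaffold Dlg2 (4.52 and 3.61), the TGF-beta-induced matrix protein Tgfbi (3.19 and 2.61; limma, adjusted p = 0.101), the Fc receptor-like Fcrls (2.47 and 3.08), the GABA receptor subunit Gabbr1 (2.18 and 3.12), Bod1l (4.44 and 2.15), the pyruvate dehydrogenase subunit Pdhb (3.43 and 2.14), the granule enzyme myeloperoxidase Mpo (2.13 and 3.30), the apoptosis regulator Siva1 (2.0 and 2.38) and the mitochondrial deacylase Sirt5 (3.06 and 1.91). None of these 9 passed (limma, adjusted p from 0.101 to 0.694). Fcrls was also high on all untreated arrays (2.57, 1.76, 4.1 and 3.42). The tetraspanin Cd81 was at 1.68 and 1.53 with LPS and between 3.07 and 3.78 without it. The complement subunit C1qa was at 0.33 and 2.09, the receptor tyrosine kinase Axl at 0.02 and 0.41, and the transcriptional inhibitor Id3 at 0.83 and -0.07. The angiogenic factor Vegfa (-0.06 and -0.49) was close to 0, and the glucose transporter Slc2a1 was low (-2.73 and -2.14; limma, adjusted p = 0.0887).

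Marker lists of macrophages and of other cell types also had medians away from 0. The macrophage identity list had a median of -1.68 (-1.37 on TAM1 and -1.57 on TAM7; -0.73 with a dye offset for each array print), and 15 of its 19 measured genes were below 0 on both arrays and 1 above. The lysosomal glycoprotein Cd68 was at -3.68 and -3.33, lysozyme (Lyz2) at -3.41 and -2.01, the phagocytosis checkpoint Sirpa at -2.58 and -2.24 and cathepsin S (Ctss) at -1.96 and -2.33. Without LPS the median of this list was -0.41. The peritoneal macrophage list, which holds Fcna, Saa3, Slpi and Retnla, had a median of -1.33, as it did without LPS (-1.33). Also in that list, coagulation factor F10 was at -2.91 and -4.37 and the secreted scavenger protein Cd5l at -2.64 and -2.58. Fibroblast and stroma genes lay on the other side: 21 of 35 were above 0 on both arrays (60%, against 32.9% of all) and 4 below. The values were mostly small, with 1 of the 35 at least 2-fold higher on both arrays and 1 at least 2-fold lower. The median of the list was 0.57, or 0.26 with a dye offset for each array print. Without LPS the median was 0.47. The list held the proteoglycans Bgn (0.68 and 1.89) and Lum (0.81 and 0.84), the collagen Col1a2 (0.90 and 1.04) and Igfbp4 (1.13 and 1.16). The part of cell composition in the lower inflammatory, interferon and lysosome ratios was not tested. Medians of the lists for neutrophils (-0.04), B and plasma cells (0.06), T and NK cells (0.36), endothelium (0.05), epithelium and mesothelium (0.40) and erythroid cells and platelets (0.37) were nearer to 0. That of the 7 mast cell and eosinophil genes was -0.48. Above 0 on both arrays were 50% of epithelial and mesothelial, 53.8% of erythroid and platelet and 45% of T and NK genes. The shares were 40% for B and plasma cells and 23.5% for endothelium. Of 14 measured neutrophil genes, 6 were below 0 on both arrays and 5 above. The granule protein Ngp was at 1.13 and 2.28 and S100a9 at 0.21 and 0.17, whereas its partner S100a8 was at -0.53 and -1.61 and the growth factor receptor Csf3r at -1.49 and -0.93.

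Genes of general cell function were low with the others. Of 26 measured ribosomal protein genes, 21 were below 0 on both arrays and none above, with a median of -1.03, for example Rps23 (-1.66 and -1.70) and Rps15a (-1.39 and -1.44). Of 33 oxidative phosphorylation genes, 22 were below 0 on both and 1 above (median -0.87), and the complex III subunit Uqcrfs1 was at -2.44 and -3.17. Without LPS these 2 lists had medians of 0.07 and 0.29. On the arrays of LPS in PEC they had medians of 2.25 and 1.35 (ribosomal) and 0.90 and 0.76 (oxidative phosphorylation). The 2 arrays of LPS in TAM stood apart, with medians of -2.04 and -1.08 on TAM-trial and of 0.14 and 0.03 on TAM-16 for these lists in that order. Whether the low interferon and cytokine ratios share a source with these lists was not tested. The medians of heat shock and chaperone genes (-0.01) and of cell cycle genes (0.11) were near 0. Below 0 on both arrays were 14 of 35 (40%) and 11 of 55 (20%) of them, against 28.2% of all genes and features.

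**Figure D4:**
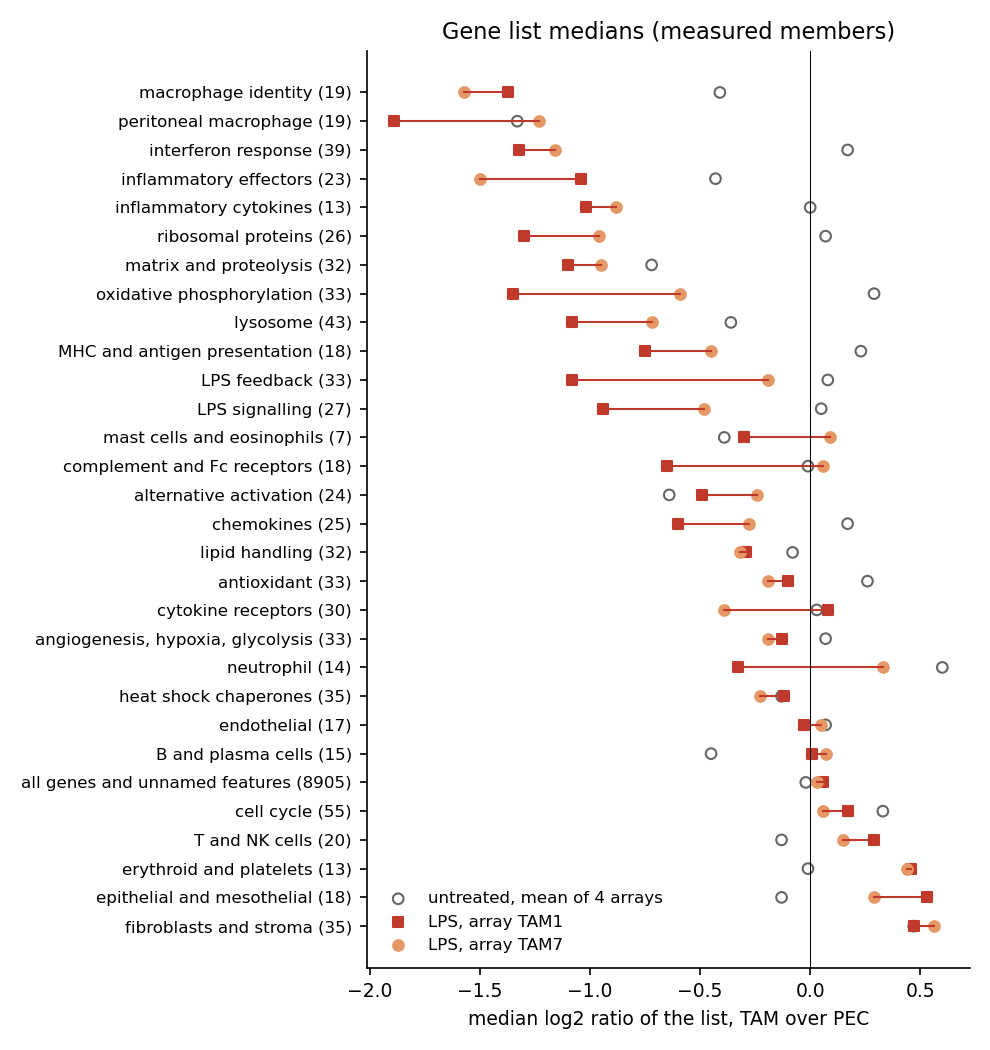
Median log2 ratio of TAM over PEC (x axis) for each gene list, with the number of measured genes in brackets, and for all genes. Red squares are array TAM1 and orange circles array TAM7, joined by a line, and open circles are the untreated mean of 4 arrays. A reader should see both LPS arrays below 0 for macrophage identity, interferon, cytokine, effector and ribosomal lists, and the untreated means of the interferon and ribosomal lists near 0 (0.17 and 0.07, with single untreated arrays from -0.05 to 0.45 and from -0.59 to 0.71).

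Genes that differed without LPS mostly lay the same way with it. Of the 30 genes and features that fell in untreated TAM, which was measured on other arrays, all 30 lay below 0 on both LPS arrays (28.2% of all did) and 26 were at least 2-fold lower on both. Of the 11 that rose, 7 lay above 0 on both LPS arrays and 1 below on both. The spread in the fit that gave these calls included TAM1 and TAM7, so the calls were not wholly independent of them. Of the genes called lower in TAM than in PEC after LPS, 3 (Fcna, Pltp and Plaur) were also called lower in untreated TAM. Their untreated means were -5.23, -3.05 and -2.36 (limma, adjusted p = 0.00042, 0.00219 and 0.0106). The mean LPS responses of these 3 genes were 1.65, 1.53 and 2.10 in PEC and -0.93, -0.64 and -0.02 in TAM. None of these responses passed (limma). Plpp3 was at 0.26, -0.72, -1.40 and -0.77 on the untreated arrays in that order, and its difference with LPS did not pass (-2.84 ± 0.57, SE; limma, adjusted p = 0.497). The RNA 0610009E02Rik was at -0.50, -0.16, -1.65 and 0.65 on them and also missed the threshold (4.90 ± 0.74, SE; limma, adjusted p = 0.276). Over all genes and features the LPS and untreated means correlated at r = 0.195.

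The other 3 comparisons give the same ratio indirectly, as untreated TAM over PEC plus the LPS response of TAM minus that of PEC. Direct and indirect values were -4.15 and -4.47 for Plaur, -4.05 and -5.21 for Pltp, -5.00 and -7.81 for Fcna, -3.50 and -2.09 for Plpp3, -2.97 and -2.89 for Tnf, -4.21 and -4.35 for Ccl3 and -4.58 and -5.13 for Timp1. For these 7 genes both routes had the same sign, and 0610009E02Rik was far smaller by the indirect route (4.48 and 0.64). Other named genes had the same sign but were far apart in size. These included Saa3 (-3.57 and -7.70), Retnla (-4.14 and -7.84), Fabp4 (-1.60 and -5.61) and Slpi (-3.65 and -6.56). Several genes of the interferon and chemokine passages had opposite signs: Cxcl10 (-1.80 and 1.69), Irf7 (-1.37 and 0.69) and Ccl5 (-1.43 and 1.6). So did Dlg2 (4.06 and -1.72), Bod1l, Gabbr1, Pdhb and Sirt5 among the genes high on both arrays, and Col1a2, Mrc1, Il12b and Stat3. Signs were opposite for 14 of the 39 interferon genes (35.9%) and for 36.4% of all genes and features. They were opposite for 20 of the 451 that were at least 2-fold lower on both arrays and for 79 of the 146 at least 2-fold higher. No gene passed a test of direct against indirect (0%; limma, 238 at an unadjusted p under 0.05), and over all genes and features they correlated at r = 0.450. Whether both routes used some of the same RNA is not given in the labels.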

How the data were processed

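Total RNA of a different condition was hybridised in each channel of 10 spotted cDNA arrays. The deposited values are log ratios by the authors, taken as log2. How the images were analysed and normalised, the log base and the dyes: not given in the sources used here. In natural logarithms the largest value, 11.687, would mean a ratio of 119014, more than a 16-bit channel can hold (65535); in base 2 it means 3297. No value was missing. Names came from the platform table supplied with the values, and features of 1 gene were averaged; of 9596 features, 483 had several symbols and 1627 none, and these were kept singly.

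The test was limma 3.58.1 in R 4.3.3 (lmFit, eBayes) on all 10 arrays with 1 mean per comparison (6 residual and 3.841 prior degrees of freedom), two-sided, with Benjamini-Hochberg adjustment over 8905 genes and features and a threshold of 0.05. On simulated data for this comparison (8905 genes and features), 37 of 50 changes set at -4 (log2) were called, with a mean estimate of -4.01. Of 50 set at -2, 13 were called, with a mean estimate of -1.79, as were 4 of 8705 with none. The simulated noise was independent between genes and arrays, with no effect of dye, print or feature place. These rates may therefore not hold for the real arrays. The difference with and without LPS and the direct against indirect ratio were contrasts of the same fit. Lists are described by counts and medians, beside all genes, with no set test.

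Named genes were those that passed (up to 10 a direction), filled to 10 by the largest smaller value among genes of the same sign on both arrays, plus a fixed panel of 42 genes, of which 7 were not measured. Further examples from lists, and genes named for the smallest p of the difference or from fits without an array, were chosen after their values were seen. The members and lists were chosen with earlier results of these data known. Alternatives were the coding of TAM1 and TAM-2R, own arrays only, centring, scaling, removal of the median of each place in groups of 96 features, dye terms, loop fits, print as a block, features kept singly, a robust prior and leaving out each array. Promoter motifs were searched in the 250 bases before each start of the RefSeq table (5377 of 6795 measured genes matched by symbol).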

Additional observations from a re-analysis of the deposited data

Results flagged for a closer look

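For 11 genes named here, all 4 untreated arrays lay on one side of 0 and both LPS arrays on the other. Over all 8905 genes and features, 164 (1.84%) did so with LPS below 0 and 203 (2.28%) with LPS above 0. Some of the 11 were named because the p of this difference was small, so their number is a description. The ratio with LPS minus that without was -4.46 for Cxcl10, -4.21 for Tbx6, -4.02 for Ier3, -3.81 for Lgals9, -3.72 for Irf7, -2.85 for Ccl5, -2.74 for Psmb8, -2.58 for Oas1a and -2.08 for Tap1, all lower with LPS, and none passed the test of the difference (limma, adjusted p from 0.241 to 0.698). It was 2.85 for Chil1 and 4.18 for Snx30, higher with LPS (limma, adjusted p = 0.416 for each).

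One untreated array stood apart from the other 3 for several genes, which chance does for about 1 in 20 groups of 4. The share of such genes over all genes and features is not given here, so those named are a description. TAM-b stood apart for Cd5l (-0.93) and Retnla (-3.18), both nearer to 0 than on the others. TAM-2R stood apart for Dlg2 (-4.70, against -0.21 to 0.33), for Lpl (-2.31) and for Il17ra (-2.64). TAM-3 was the highest for Oas1a (1.76), Csf2 (0.23) and Junb (0.40), and TAM-8 the lowest for Tbx6 (0.87).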

How the results depend on the processing

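The 6 calls (1 higher, 5 lower) became 0 with TAM1 unturned, with TAM1 and TAM-2R unturned, on the 2 arrays alone and with a dye offset for each print. They became 81 (8 higher, 73 lower) with arrays scaled, 16 (2 and 14) with feature place removed, 14 (1 and 13) with print as a random block, 137 (3 and 134) with a loop fit and 131 (6 and 125) when it also had a dye term; 3 of the 4 calls with a dye term were lower. Leaving out 1 array gave 3 to 11 calls (0 to 4 higher, 1 to 9 lower). Leaving out PEC1, PEC2, TAM-trial, TAM-16 or TAM1 gave 3, and leaving out TAM-2R gave 11. With a dye offset for each print the medians of the macrophage identity and ribosomal lists went from -1.68 to -0.73 and from -1.03 to -0.46. With TAM1 unturned, with or without turning TAM-2R, the means were 0.07 (Fcna), 0.44 (Plaur), 0.12 (Pltp), 0.22 (Plpp3) and -0.96 (0610009E02Rik), and 17 of 29 list medians changed sign. The cause was not tested. Under the other settings that keep both arrays and the coding, no called gene changed sign. Several of these settings leave the mean of TAM1 and TAM7 as it is, so its sign could not change there. Calls of a difference with and without LPS stayed at 0, except 2 without TAM7 (Abcb4 and Fkbp4), and direct against indirect ratios gave 0 wherever they could be fitted. No paired analysis was possible because the comparisons share at most 1 replicate number. With 2 arrays the number of arrays limits precision, and signal over background was not used here.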

Other observations

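Receptors and defence against oxidants, not described above, also held genes low on both arrays. The interleukin 17 receptor Il17ra was at -3.33 on TAM1 and -2.65 on TAM7 (limma, adjusted p = 0.0557), and the tumour necrosis factor receptor Tnfrsf1b at -2.13 and -3.45 (limma, adjusted p = 0.261). The glutathione transferase Gstm1 was at -3.02 and -1.88 (limma, adjusted p = 0.0793), thioredoxin (Txn1) at -2.03 and -3.23, and ferritin heavy chain (Fth1) at -1.42 and -0.87. The medians of both lists were near 0, at -0.15 over 30 cytokine receptor genes and -0.17 over 33 antioxidant genes. Below 0 on both arrays were 12 (40%) and 16 (48.5%) of them, against 28.2% of all genes and features. At least 2-fold lower on both were 7 (23.3%) and 3 (9.09%), against 5.06%.

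The feature named Tbx6, a developmental transcription factor, followed Cxcl10 array by array. It was at -1.95 on TAM1 and -1.98 on TAM7, against -1.81 and -1.79 for Cxcl10, and at 0.87, 2.81, 2.70 and 2.57 on the untreated arrays TAM-8, TAM-b, TAM-3 and TAM-2R, against 1.40, 3.47, 3.08 and 2.68. With LPS in PEC it was at 2.89 and 3.65, against 2.97 and 5.02.

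Some of the largest ratios were on 1 array of the pair. Abcb1b, a multidrug transporter, was at 9.85 on TAM7 and 0.24 on TAM1, and Abcb4, a related phospholipid transporter, at 6.77 on TAM1 and 0.82 on TAM7. The transferrin receptor Tfrc was at 6.24 on TAM1 and 1.21 on TAM7, and the co-chaperone Fkbp4 at -7.17 on TAM1 and 0.44 on TAM7. None of these 4 passed on both arrays together (limma, adjusted p from 0.235 to 0.467).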
